A study of Mus musculus with 2 samples.

Results

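The transcripts examined here are those of 50 genes of the cell cycle and of mitosis, read in glomeruli of mice on 2 arrays. The genes were chosen by name, with earlier results of these data known. They fall into 9 genes of the G1/S transition, 13 of S phase and 28 of G2 and mitosis (G2/M). A gene was read from every probe set that the platform annotation assigns to exactly 1 gene, which gave 119 probe sets for 49 of the 50 genes, of 34945 such probe sets and 18193 genes in all. Ccnb1 had no probe set of this kind and its level is not analysed here. A gene was taken as measured where its signal reached a floor of 52.7 in at least 1 array, the floor being the 40th percentile of the signals averaged over the arrays. By that rule 45 members were measured, 39 of them in both arrays, of 13290 measured genes in all.

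All mice were male, of C57BL/6J background, and homozygous for floxed alleles of GC-A, the guanylyl cyclase receptor of natriuretic peptides, and of the stress-activated kinase p38. The double knockout (DKO) carried Nephrin-Cre as Cre/+, so that the nephrin promoter drives Cre in podocytes, and the floxed control was Nephrin-Cre +/+, read here as having no Cre allele. At 2 months of age both genotypes had been on a diet of 6% NaCl for 3 weeks while a minipump delivered aldosterone, at 0.2 µg per minute for each kg of weight, so that the control was itself under this load. Glomeruli were obtained by graded sieving, and each genotype has 1 array, with the number of mice per array not given in the sources used here. No difference below therefore has a replicate check or a p-value, and higher and lower describe these arrays only.

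A cell that re-enters the cycle first raises D-type cyclins, which activate Cdk4 and Cdk6, then cyclin E with Cdk2, and E2F factors turn on the genes of DNA replication. The MCM proteins form the helicase loaded at replication origins. Later, the mitotic cyclins with Cdk1, the Aurora and Polo kinases, spindle motors and the anaphase-promoting complex bring about division, and their genes are switched on late in the cycle through CHR elements and CCAAT boxes in their promoters. Podocytes are known as cells that seldom divide after development, whereas mesangial, endothelial, parietal and infiltrating cells of a glomerulus can divide after injury.

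The median signals were 94.7 in DKO glomeruli and 88.6 in floxed control glomeruli, and the median log2 difference, double knockout minus control as throughout, was 0.07 over all measured genes. The 3′ over 5′ signal ratio of the Actb control probe sets was 1.29 in DKO and 1.36 in control glomeruli. Npr1, which encodes GC-A, read 102 in DKO and 167 in control glomeruli. Mapk14, which encodes p38α and is taken here as the p38 gene, read 2607 in DKO and 2628 in control glomeruli in its brightest set. Whether any of these probe sets lies in a floxed exon is not given in the sources used here, so they do not check the labels.

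Of the 45 measured members, 5 were at least 2-fold higher in double knockout glomeruli, namely Mki67, Ube2c, Cdk6, Top2a and Tpx2. None was at least 2-fold lower. Raising the floor to the 60th percentile left 3 members higher by this rule, against 2.64% of all measured genes. Lowering it to the 25th gave 8, against 4.33%. Of all measured genes, 3.53% were higher by that rule and 2.87% were lower. Another 16 members lay between 1.5-fold and 2-fold higher, so that 21 of 45 (46.7%) were at least 1.5-fold higher, against 13.7% of all measured genes. No member was at least 1.5-fold lower, against 10% of all measured genes. Of the members, 39 lay above 0 and 6 below (Foxm1, Mcm2, Cdc45, Cdk2, Cdt1 and Kif20a), whereas 56.1% of all measured genes lay above 0. The 56.1% is for signals as deposited. After centring each array on its median, 34 members lay above 0, with medians of 0.45 for the members and -0.03 for all measured genes. After recentring on glomerular markers (described below) 18 members lay above 0, with medians of -0.15 for the members and -0.58 for all measured genes. Recentring subtracts 1 value from every gene, so the distance of the members from all measured genes stayed the same. The share of all measured genes above 0 was not counted under either setting. As deposited, the median log2 difference of the members was 0.50. By phase it was 0.70 for 25 G2/M members, 0.28 for 11 S members and 0.29 for 9 G1/S members. The members were chosen with earlier results of these data known, so their shares describe the list and are not a test. Cell cycle genes outside the members, read further below, gave 3.60% at 2-fold and 19.4% at 1.5-fold.

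Most G2/M members had low signals. Among the 4753 genes within the mean signal range of the measured G2/M members (53.2 to 329), 5.34% were higher by the 2-fold rule and 17.9% by the 1.5-fold rule. Of the 25 measured G2/M members, 4 met the 2-fold rule and 15 the 1.5-fold rule. A member that reached the floor in double knockout glomeruli alone had to read higher, which holds for Ccne1, Aurkb, Bub1 and Melk, and Cdc45 and Kif20a reached it in control glomeruli alone. With no floor and all 49 members kept, the medians were 0.70 for G2/M, 0.43 for S and 0.29 for G1/S.

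**Figure D1:**
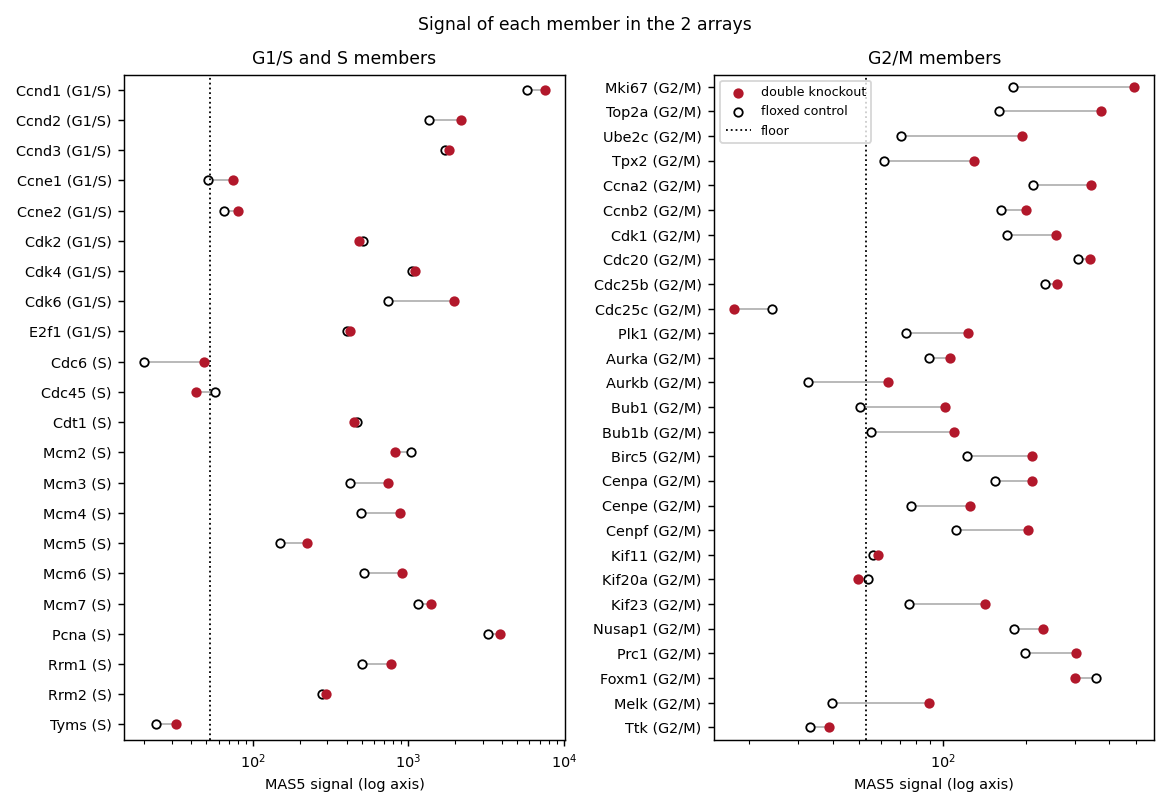
Signal of the probe set that stands for each member, on a log axis, with filled points for the double knockout, open points for the floxed control and a dotted line at the floor of 52.7. In the G2/M panel the filled point lies to the right for most genes, with Foxm1, Cdc25c and Kif20a as the exceptions.

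Markers of the cell types in the samples also differed between the arrays. Median log2 differences were 0.61 for 10 measured podocyte markers, 0.61 for 12 endothelial, 0.85 for 9 mesangial, 0.63 for 8 parietal and 0.92 for 11 macrophage markers. They were -0.84 for 11 proximal tubule markers and -0.83 for 8 distal nephron markers, all of them below 0. The parietal markers were split, with 2 of 8 below 0 and a range from -0.15 to 2.46. All measured podocyte, endothelial, mesangial and macrophage markers lay above 0. All 10 podocyte markers with a probe set were above the floor in both arrays, with a summed signal of 88185 in DKO and 63279 in control glomeruli. The macrophage markers summed to 14426 in DKO and 7936 in control glomeruli, and the proximal tubule markers to 90765 in DKO and 144596 in control glomeruli. Lymphocyte markers were near the floor, with 3 of 7 measured and sums of 347 in DKO and 332 in control glomeruli. The G2/M median of 0.70 thus lay close to the median of 0.65 over the 39 measured glomerular markers, and the G1/S and S medians lay below it. With all differences recentred on those markers, the G2/M median was 0.05, the S median -0.37, the G1/S median -0.36 and that of all measured genes -0.58. No member was then at least 2-fold higher, against 0.489% of all measured genes. The part of cell composition in the member differences was not tested. In bulk glomeruli, fewer cells of a type and less RNA per cell cannot be told apart.

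**Figure D2:**
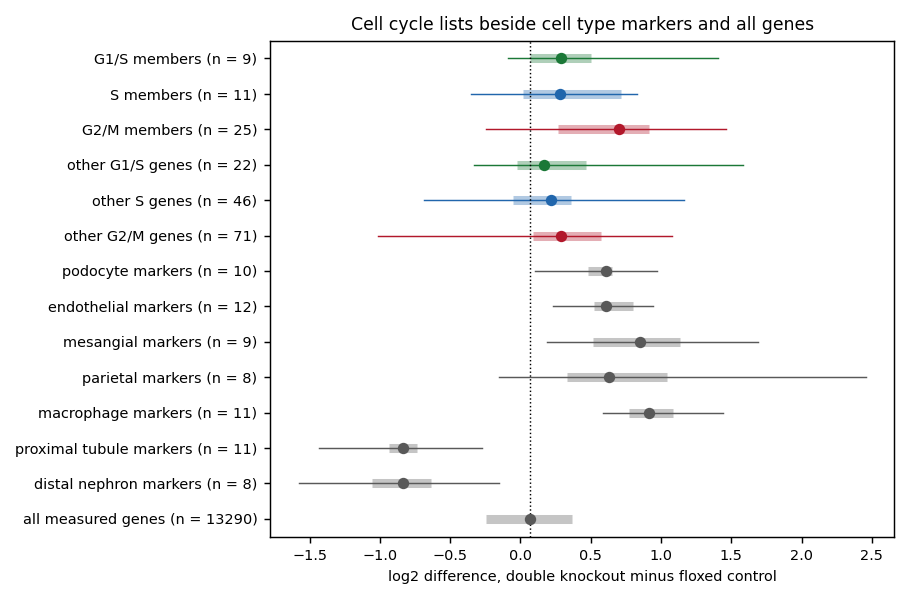
Log2 difference, double knockout minus floxed control, by list. Points are medians, thick bars the middle 50% of genes and thin lines the full range (not drawn for all genes), and the dotted line marks the median of all measured genes at 0.07. The G2/M members lie near the glomerular and macrophage markers, and the tubule markers lie on the other side of 0.

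**Figure D3:**
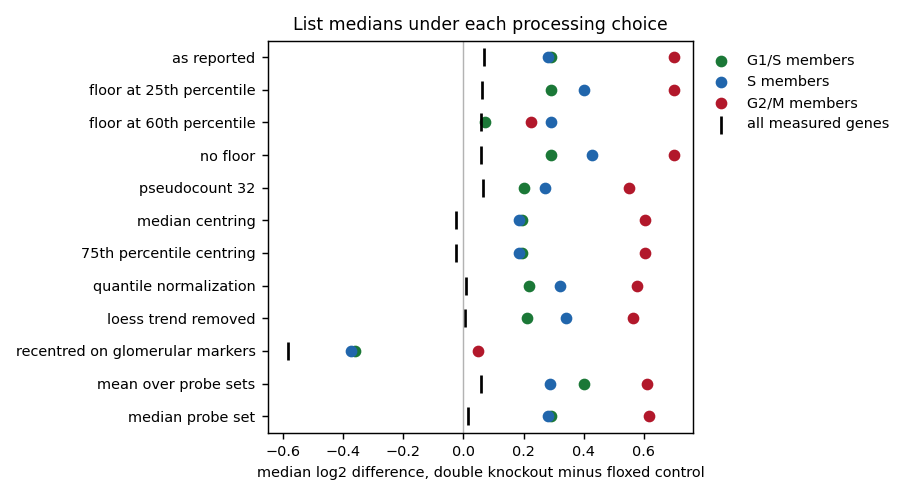
Median log2 difference, double knockout minus floxed control, of G1/S, S and G2/M members and of all measured genes (ticks) under each processing choice. The G2/M median is the highest of the 3 in all but the 60th percentile floor, and recentring moves all of them down.

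Among the D-type cyclins and their kinases, Cdk6 stood out. The brightest Cdk6 set gave 1968 in DKO and 742 in control glomeruli, 2.65-fold higher. Its other probe sets read 1023 in DKO and 380 in control glomeruli (log2 difference 1.43) and 226 in DKO and 134 in control glomeruli (0.76), so all 3 were higher. Cdk4, the closely related kinase, read 1097 in DKO and 1050.1 in control glomeruli, a log2 difference of 0.06. Its other sets gave 0.33 and, in a set marked as cross-hybridising, 0.24. Ccnd2, which encodes cyclin D2, read 2176 in DKO and 1347 in control glomeruli, 1.62-fold higher. All 7 Ccnd2 probe sets were higher, with log2 differences from 0.55 to 0.93 (SD 0.13 over the 6 sets that are not marked as cross-hybridising).

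Ccnd1, the gene of cyclin D1, read 7529 in DKO and 5827 in control glomeruli, 1.29-fold higher, and its 3 sets ran from 0.37 to 0.57. Ccnd3, for cyclin D3, read 1815 in DKO and 1726.5 in control glomeruli (0.07), whereas a dimmer set read 125 in DKO and 75.6 in control glomeruli (0.73). All 3 D-type cyclin genes thus read higher as deposited, but Ccnd3 read -0.02 after median centring, and recentring on glomerular markers gave -0.58 for Ccnd3, -0.28 for Ccnd1 and 0.04 for Ccnd2.

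The cyclin E genes, their kinase and E2f1 act next in the cycle. Cdk2 read 479.7 in DKO and 509 in control glomeruli, a log2 difference of -0.09. Of the cyclin E genes, Ccne2 read 79.5 in DKO and 65.0 in control glomeruli (0.29). Ccne1 read 74.5 in DKO glomeruli and 51.0, below the floor, in control glomeruli, at least 1.42-fold higher. Its other set, marked as cross-hybridising, read 72.2 in DKO and 75.01 in control glomeruli. E2f1, the transcription factor of replication genes, read 422 in DKO and 402 in control glomeruli (0.07), and its second set read -0.30. The differences of Cdk2 and E2f1 were smaller than the spread of probe sets of 1 gene, and that of Ccne2 was about equal to it. That spread, as a pooled SD of the log2 difference, was 0.33 over 15 members with more than 1 set, 0.28 over 5418 such genes and 0.35 over those in the G2/M signal range. It covers error between probe sets of the same arrays and not error between mice.

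In S phase 5 of the 6 MCM helicase genes read higher, by differing amounts, and the sets of Mcm2 disagreed. Mcm3 read 740.2 in DKO and 418 in control glomeruli, 1.77-fold higher. Mcm4 read 879.8 in DKO and 498 in control glomeruli, and Mcm6 911 in DKO and 515 in control glomeruli, also each 1.77-fold higher. The likeness of these 3 factors holds for the sets that stand for the genes. Averaged over probe sets, the log2 difference of Mcm3 was 0.62. Mcm5 read 223 in DKO and 149 in control glomeruli, a log2 difference of 0.58, just under the 1.5-fold line. Mcm7 read 1399 in DKO and 1152 in control glomeruli (0.28). Mcm2, the remaining subunit, read 820 in DKO and 1045 in control glomeruli (-0.35), but its second set read 401 in DKO and 291 in control glomeruli (0.46). Mcm2 therefore has no settled direction here. The other sets of Mcm4, Mcm5 and Mcm6 above the floor gave 1.17, 0.83 and 0.999, all marked as cross-hybridising. Those of Mcm3 ran from -0.06 to 0.95.

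The helicase loading factors are Cdt1 and Cdc6. Cdt1, which loads the helicase with Cdc6, read 448 in DKO and 466 in control glomeruli (-0.06), with a second set at 0.03. Cdc6 itself was below the floor in both arrays, at 48.7 in DKO and 19.99 in control glomeruli, and counted as at least 2-fold higher where the floor was set at the 25th percentile or left out. Cdc45, part of the active helicase, had 2 dim sets of opposite sign, at 42.7 in DKO and 56.9 in control glomeruli, and at 66.8 in DKO and 30.03 in control glomeruli. For nucleotide supply, Rrm1, the large subunit of ribonucleotide reductase, read 767 in DKO and 502 in control glomeruli, 1.53-fold higher, with a second set at 0.36. Rrm2, its small subunit, read 296 in DKO and 278 in control glomeruli (0.09). Further sets gave 0.38 and, in a set marked as cross-hybridising, 0.38. Pcna, the sliding clamp, read 3896 in DKO and 3244 in control glomeruli (0.26). Tyms, the thymidylate synthase gene, was below the floor in all 4 of its sets.

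**Figure D4:**
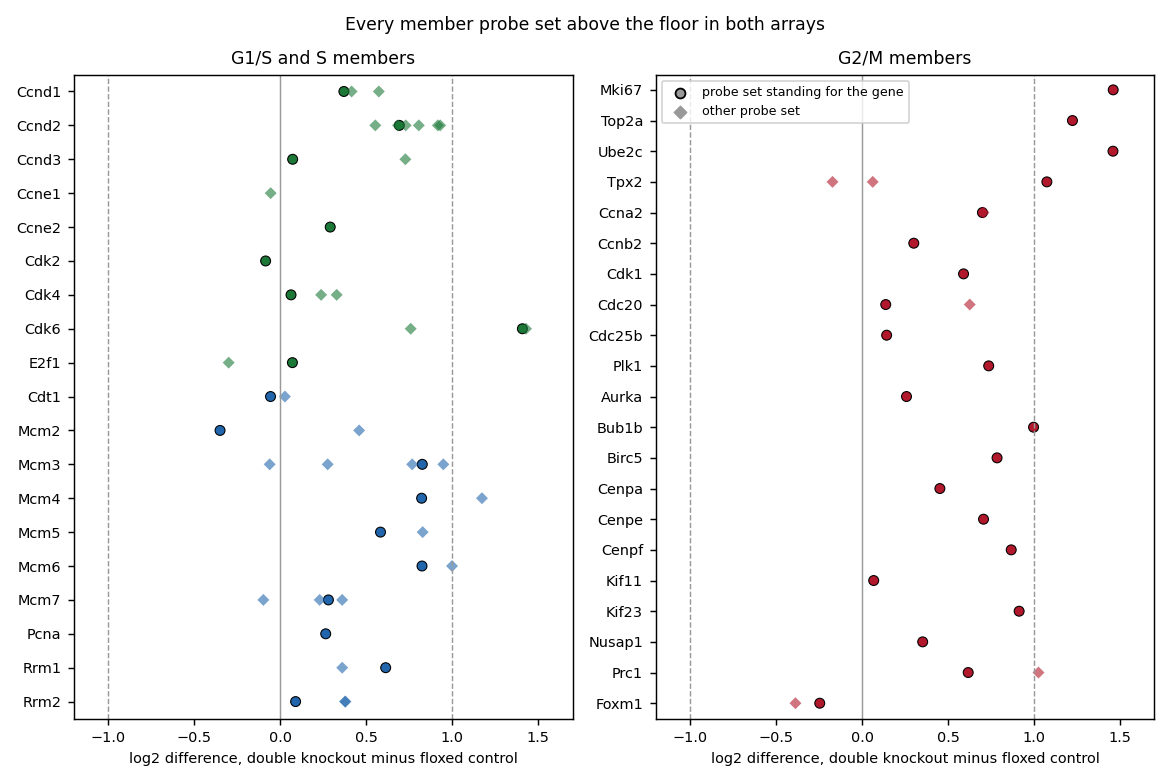
Log2 difference, double knockout minus floxed control, of each member probe set above the floor in both arrays (75 of 119), with circles for the set that stands for the gene and diamonds for the others, and dashed lines at 2-fold. Of the 75 sets, 65 lie above 0, against 12656 of 22273 such sets of all genes. Some genes have several sets, so the 65 are not separate genes. Sets of Mcm2, Mcm3 and Tpx2, among others, disagree in sign.

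The widest G2/M differences were those of Mki67, Ube2c and Top2a. Mki67, for the antigen Ki-67 that coats mitotic chromosomes and marks proliferating cells, read 494 in DKO and 179 in control glomeruli, 2.75-fold higher. Top2a, the topoisomerase that untangles chromosomes, read 373 in DKO and 159.7 in control glomeruli, 2.34-fold higher. Ube2c, the ubiquitin-conjugating enzyme of the anaphase-promoting complex, read 194 in DKO and 70.6 in control glomeruli, 2.75-fold higher. Each of these rests on 1 probe set above the floor. Among measured genes they stood at percentiles 99.2, 98.4 and 99.2.

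Tpx2, which activates Aurora A on the spindle, was less settled. The set that stands for the gene read 130 in DKO and 61.5 in control glomeruli (2.11-fold higher), and a second read 100.4 in DKO and 44.7 in control glomeruli. The others read 81.4 in DKO and 91.7 in control glomeruli (-0.17) and 95.6 in DKO and 91.5 in control glomeruli (0.06). The last of these is marked as cross-hybridising. Averaged over probe sets, Tpx2 was not past 2-fold.

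The spindle checkpoint kinases both read higher. Bub1b, for BubR1, read 110 in DKO and 55.2 in control glomeruli (log2 difference 0.997). Bub1 read 102 in DKO glomeruli and 50.2, below the floor, in control glomeruli, at least 1.93-fold higher, and it passed 2-fold with the floor at the 25th percentile. Cdc20, the activator that the checkpoint restrains, read 341 in DKO and 310 in control glomeruli (0.14), with a cross-hybridising set at 0.63.

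The 4 centromere and kinetochore genes were all higher, at log2 differences from 0.45 to 0.87. After recentring on glomerular markers Cenpa turned to -0.20, and the others of this group stayed above 0, at 0.05 to 0.22. Members of other groups also turned below 0, such as Aurka (-0.39), Ccnb2 (-0.35) and Pcna (-0.39). Of the 45 measured members 18 stayed above it. Cenpf read 204 in DKO and 112 in control glomeruli. Cenpe, a kinetochore motor, read 126 in DKO and 76.9 in control glomeruli, and a dimmer set read 61.1 in DKO and 25.6, below the floor, in control glomeruli. Birc5, which encodes survivin of the chromosomal passenger complex, read 211 in DKO and 122 in control glomeruli. Cenpa, the histone variant that marks centromeres, read 211 in DKO and 154 in control glomeruli. In this group no gene reached 2-fold.

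Among the mitotic cyclins and Cdk1, Ccna2 lay at the G2/M median of 0.70, and Cdk1 and Ccnb2 lay below it. Ccna2, for cyclin A2, read 345 in DKO and 212 in control glomeruli, and its sets gave 0.70 and 0.71. Cdk1 read 257 in DKO and 171 in control glomeruli (0.59), and Ccnb2, for cyclin B2, 199.7 in DKO and 162 in control glomeruli (0.30). Cdc25b, a phosphatase that activates Cdk1, read 258 in DKO and 234 in control glomeruli (0.14), and its relative Cdc25c was below the floor in both arrays.

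The mitotic kinases varied. Plk1, the Polo kinase, read 123 in DKO and 73.9 in control glomeruli (0.74). Melk read 89.0 in DKO and 39.9 in control glomeruli, at least 1.69-fold higher. Aurka, for Aurora A, read 106 in DKO and 89.0 in control glomeruli (0.26). Aurkb, for Aurora B, read 63.3 in DKO and 32.6 in control glomeruli, at least 1.20-fold higher, with a cross-hybridising set at 92.4 in DKO and 48.1 in control glomeruli. Ttk, the checkpoint kinase Mps1, was below the floor. Foxm1, a transcription factor of G2/M genes, was the lowest G2/M member. It read 302 in DKO and 358 in control glomeruli (-0.25). A second set, marked as cross-hybridising, read 67.1 in DKO and 87.8 in control glomeruli (-0.39).

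Motors and spindle proteins ranged from near 0 to Tpx2. Kif23, of the central spindle, read 142 in DKO and 75.3 in control glomeruli, 1.88-fold higher. Prc1, which bundles microtubules there, read 304 in DKO and 198 in control glomeruli (0.62), with a second set at 158 in DKO and 77.7 in control glomeruli (1.03). Nusap1 read 231 in DKO and 181 in control glomeruli (0.35). Kif11, the motor that separates spindle poles, read 58.6 in DKO and 55.9 in control glomeruli (0.07), whereas another set read 64.7 in DKO and 33.6, below the floor, in control glomeruli. Kif20a, a motor of cytokinesis, read 49.6 in DKO and 53.7 in control glomeruli (-0.03), and both motors lay near the floor.

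Promoter sequence, which had no part in the choice of members, was then read by phase. RefSeq windows of GRCm38.p6, from 250 bases before to 50 after the annotated start, were matched by symbol for 40 of the 50 members (not Ccnd1, Ccnd2, Ccne2, Mcm4, Tpx2, Ccna2, Cdc25c, Aurkb, Kif20a and Foxm1). The motifs searched on both strands were the CHR element (TTTGAA or TTCGAA), the CCAAT box (CCAAT) and the E2F site (TTTCCCGC or TTTGGCGC), and no match of one overlapped a match of another in the member windows. A CHR element was present for 17 of 22 G2/M members (77.3%), 3 of 12 S members and 0 of 6 G1/S members, against 19.2% of all 32851 windows and 16.5% of 10707 measured genes with a window. An E2F site was present for 0 of 22 G2/M members, 6 of 12 S members (Cdc6, Cdt1, Mcm3, Mcm5, Mcm6 and Mcm7) and 1 of 6 G1/S members (Cdk2). It was present in 1.56% of all windows and for 3.20% of measured genes with a window. A CCAAT box was present for 19 of 22 G2/M members, 9 of 12 S members and 2 of 6 G1/S members. It was present in 37.4% of all windows and for 42.3% of measured genes with a window. Cell cycle genes outside the members, in lists by the same phases, divided less clearly. A CHR element was present for 37 of 64 such G2/M genes (57.8%), 7 of 40 S genes (17.5%) and 9 of 17 G1/S genes (52.9%). An E2F site was present for 6 of the 64 G2/M genes, 11 of the 40 S genes and 5 of the 17 G1/S genes.

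All 17 G2/M members with a CHR element had a CCAAT box upstream of at least 1 such element, at a median of 35 bases before the CHR element nearest the start (from 9 to 153). Counting only the 250 bases before the start, a setting chosen after the data were seen, 9 of 22 G2/M members held a CHR element. The share was 17.1% of all windows and 14.8% of measured genes with a window. A match is a description of the letters and not of binding.

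The promoters of the 4 members with the widest difference among those with a match, and of the S phase gene Mcm6, which was chosen after its motifs were seen, are given below to show where the motifs lie. Each is the 250 bases before the start, 5′ to 3′ on the gene's strand, with matches to the 3 motifs in capitals. In Mki67, Ube2c and Top2a CCAAT boxes lie upstream of CHR elements. In Bub1b the CHR element shown lies upstream of the CCAAT box, and the one downstream of that box, at base 40 after the start, is outside the stretch shown. Mcm6 holds CCAAT boxes and 2 E2F sites.
Mki67, chr7:135716380-135716629, minus strand: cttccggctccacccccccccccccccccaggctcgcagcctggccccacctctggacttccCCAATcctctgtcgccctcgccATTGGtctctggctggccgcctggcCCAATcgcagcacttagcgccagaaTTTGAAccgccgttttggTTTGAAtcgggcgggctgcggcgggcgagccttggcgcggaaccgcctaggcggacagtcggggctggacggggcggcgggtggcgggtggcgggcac
Ube2c, chr2:164769679-164769928, plus strand: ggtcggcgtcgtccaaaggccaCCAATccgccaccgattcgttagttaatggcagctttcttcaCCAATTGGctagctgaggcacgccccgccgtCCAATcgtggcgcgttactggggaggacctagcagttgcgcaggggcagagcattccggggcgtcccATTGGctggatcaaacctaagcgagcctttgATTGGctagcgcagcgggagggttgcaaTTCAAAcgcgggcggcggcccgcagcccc
Top2a, chr11:99024190-99024439, minus strand: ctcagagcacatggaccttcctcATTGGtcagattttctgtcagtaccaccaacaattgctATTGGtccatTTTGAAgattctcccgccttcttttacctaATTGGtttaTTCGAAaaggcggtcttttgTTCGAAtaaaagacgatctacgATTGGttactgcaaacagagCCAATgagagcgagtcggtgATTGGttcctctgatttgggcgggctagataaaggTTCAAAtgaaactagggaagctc
Bub1b, chr2:118597961-118598210, plus strand: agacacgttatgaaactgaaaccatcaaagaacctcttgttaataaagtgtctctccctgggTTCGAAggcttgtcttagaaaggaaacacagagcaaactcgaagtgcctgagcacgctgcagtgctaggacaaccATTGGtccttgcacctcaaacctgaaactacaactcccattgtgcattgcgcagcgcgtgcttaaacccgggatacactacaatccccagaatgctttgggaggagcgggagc
Mcm6, chr1:128359706-128359955, minus strand: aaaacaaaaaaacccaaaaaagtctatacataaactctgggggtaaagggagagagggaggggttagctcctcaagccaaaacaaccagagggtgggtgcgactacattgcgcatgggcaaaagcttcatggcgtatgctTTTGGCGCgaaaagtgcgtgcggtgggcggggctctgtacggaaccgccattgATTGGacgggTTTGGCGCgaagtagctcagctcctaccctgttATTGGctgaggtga

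Measured genes with and without a CHR element had close medians. Over all 1768 measured genes whose promoter held a CHR element, the median log2 difference was 0.05 and 3.73% were at least 2-fold higher, against 0.06 and 3.11% of 8939 genes without one. Among measured G2/M members the median was 0.68 for 16 with a CHR element and 0.73 for 4 without.

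**Figure D5:**
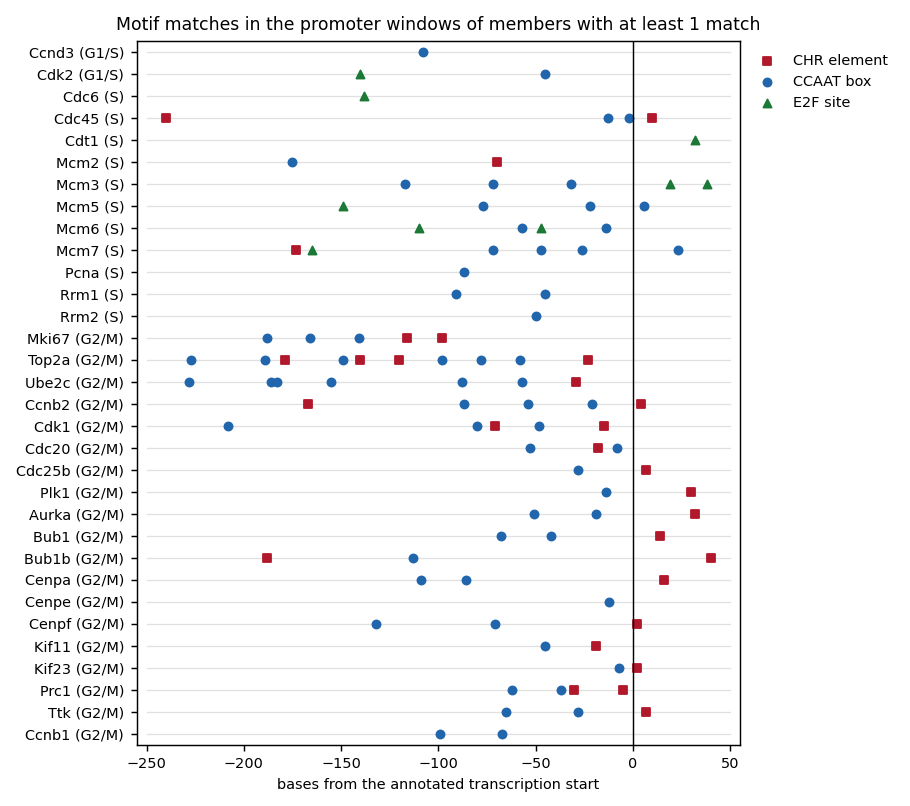
Positions of the first base of each motif match, in bases from the annotated start, for members with at least 1 match. Ccnd3, Mcm7 and Prc1 have 2 windows each, drawn on 1 line. CHR elements (squares) lie near the start in most G2/M genes that hold one, and E2F sites (triangles) lie in S and G1/S genes.

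Cell cycle genes outside the members, 152 in lists by the same phases, were read in the same way. The 71 measured G2/M genes among them had a median log2 difference of 0.29. Of the 71, 60 (84.5%) lay above 0, against 56.1% of all measured genes. By the 2-fold rule 3 of the 71 were higher and 1 was lower. For 46 S genes the median was 0.22, with 1 at least 2-fold higher, and for 22 G1/S genes it was 0.17, also with 1. Together 5 of 139 were at least 2-fold higher, a share near the 3.53% of all measured genes. By the 1.5-fold rule 27 (19.4%) were higher, against 13.7% of all measured genes. A 25th percentile floor gave 15 such genes at 2-fold, no floor 17, median centring 2, and a 60th percentile floor or recentring on glomerular markers 0. Of all measured genes, those settings gave 4.33%, 9.1%, 2.5%, 2.64% and 0.489%, in that order.

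Myc, a driver of cell growth and of entry into the cycle, was 3.00-fold higher (307 in DKO glomeruli, 102 in control glomeruli), and Cks1b, a cofactor of the Skp2 ubiquitin ligase, was 1.91-fold higher. In the same list Cdk7 (-0.33) and Rbl2 (-0.25) were lowest. Uhrf1, which maintains DNA methylation at replication, was 2.24-fold higher (256 in DKO, 114 in control glomeruli), and Pole, for the catalytic subunit of DNA polymerase ε, was 1.89-fold higher. Gmnn, whose product geminin restrains Cdt1, was 1.61-fold lower (352 in DKO, 565 in control glomeruli), and Mcm8 read -0.27.

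Among the other G2/M genes, Kif20b and Trip13 were 2.12-fold and 2.07-fold higher. Racgap1, a partner of Kif23 in cytokinesis, was 2.03-fold higher and was picked after its value was seen. Cks2, a small subunit that binds Cdk1, went the other way. It read 1611 in DKO and 3249 in control glomeruli, 2.02-fold lower, with a second set at -0.71. Spc25, of the kinetochore Ndc80 complex, read 843 in DKO and 1423 in control glomeruli (-0.76), with a second set at -0.40. Of the other G2/M genes 11 of 71 lay below 0, and of the G2/M members 2 of 25, against 5835 of all 13290 measured genes.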

How the data were processed

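Total RNA of sieved glomeruli was labelled by 3′ in vitro transcription for 1-colour arrays, per the labels' protocols. The authors deposited linear signal intensities, 1 for each probe set on each array. The submitters' processing notes name MAS5, without a version in the sources used here. Both arrays have the same trimmed mean signal, so that differences are relative to each sample's other transcripts. The number of arrays limits the precision.

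Signals were used as deposited. Control probe sets (64) were left out, as were, for genes, 932 probe sets with several genes and 9160 with none listed in GEO's platform annotation. Every member probe set with 1 symbol was read. For counts and medians a gene was represented by its set of highest mean log2 signal, and sets marked _x_at as cross-hybridising served only where no other existed. Signals below the floor of 52.7 were raised to it before log2, and such differences are lower bounds in size. Called means at least 2-fold. No test is possible with 1 array per genotype. Every member is named. Of each list of other cell cycle genes, the 2 highest and 2 lowest measured genes are. The members, lists and rules were chosen with earlier results of these data known.

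Alternatives were other floors, a pseudocount, scalings, probe set choices and size rules. The steps were tested on simulated signals, with changes larger than 2-fold in genes well above the floor. That test does not cover differences near 2-fold or genes near the floor. Python 3.11.15, numpy 2.4.6, pandas 2.3.3, statsmodels 0.14.6 (loess) and matplotlib 3.10.9 were used.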

Additional observations from a re-analysis of the deposited data

How the results depend on the processing

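With 1 array per genotype no replicate can be left out. No paired analysis was possible because each genotype has 1 array and the result comes from no test. A median was taken to have moved past 0.2 on the log2 scale, and a count past 1.5 times. The cause of each change was not tested, unless the setting itself shows it. Recentring on glomerular markers, which subtracts 1 value from every gene, gave 0 members at least 2-fold higher and 1 lower (Mcm2). Of all measured genes, 0.489% were then higher and 19.1% lower by that rule. Medians were -0.36 for G1/S, -0.37 for S, 0.048 for G2/M and -0.58 for all measured genes. The number of other cell cycle genes at least 2-fold higher was then 0. A floor at the 60th percentile, which keeps 31 of the members, gave 3 members and 0 other cell cycle genes higher. Of all measured genes, 2.64% were then higher. The medians were 0.072 for G1/S and 0.22 for G2/M. A floor at the 25th percentile gave 8 members and 15 other genes higher, and no floor gave 8 and 17. Both added Bub1, Melk and Cdc6 to the 5 members. Of all measured genes, 4.33% were higher with the lower floor and 9.1% with none. The 1.5-fold rule gave 21 members and 27 other genes, and the 3-fold rule 0 and 1. Of all measured genes, 13.7% and 0.549% were higher by those rules. Centring on the median or on the 75th percentile, quantile normalization and removal of the loess trend each gave 2 other genes, and the probe set of median difference gave 3. Under those 5 settings, the pseudocount of 32 and the mean over probe sets, 4 members were at least 2-fold higher (Cdk6, Mki67, Top2a and Ube2c), without Tpx2. Of all measured genes, 2.5% to 2.92% were at least 2-fold higher under those settings. Apart from recentring, the count of members at least 2-fold lower was 0 under every alternative run. The share of all measured genes lower by the 2-fold rule ran from 2.56% to 8.2% over those alternatives. Counting only the bases before the start left 9 of 22 G2/M members with a CHR element, and the other 8 hold it only after the start. Many G2/M genes have low signals, and at the 60th percentile floor their median was no longer above that of S phase members.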
